A study of Homo sapiens with 9 samples.

Results

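MCF10A is an immortalized, non-tumorigenic line of human mammary epithelial cells. Here its baseline expression without epidermal growth factor (EGF) was described from the 3 arrays of cells that carried an empty pBabe retrovirus, out of 9 arrays in 3 groups in the series. These arrays were chosen by their sample titles, which call them biological replicates of the vector control, and no measured value entered the choice. Per the labels' protocols, stocks of the line were grown in DMEM/F12 with insulin at 10 microgram/ml, cholera toxin at 100 ng/ml, hydrocortisone at 0.5 microgram/ml, EGF at 20 ng/ml, penicillin, streptomycin and 5% horse serum. Once infected, the cells described here were moved to an assay medium that held 2% horse serum and lacked EGF. The time spent without EGF, whether this medium held hydrocortisone, cholera toxin or insulin, and whether the replicates were separate infections are not stated in the labels. The SDs below therefore cover the spread between these 3 RNA samples, which came from cultures of 1 line.

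MCF10A is widely used as a model of the normal breast epithelium, although it grows in culture as a mixture of basal and luminal features. In the breast, basal cells rest on the basement membrane, carry keratins 5 and 14 and bind laminin through integrins, while luminal cells face the duct, carry keratins 8, 18 and 19 and respond to steroid hormones. The line needs EGF for its usual growth, receives it through EGFR, a receptor tyrosine kinase that feeds the ERK and AKT kinases, and is known to have lost the CDKN2A region of chromosome 9.

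Each gene was represented by the probe set (a group of short probes against 1 stretch of transcript) that names it alone and had the highest mean signal on the 3 arrays. Signals are on the linear scale on which the authors' software sets the mean of an array to about 100, and are given as mean ± SD (n = 3). A gene was called near background at or under a signal of 21.6, which is the 95th percentile of 107 probe sets of 82 olfactory receptor genes, a family used in the nose. It was called high at 1000 or more and moderate in between. Probes differ in how well they bind, so a signal places a gene in a class and does not rank the transcript amounts of different genes. A gene near background was not distinguishable from the olfactory receptors at this sensitivity, which does not show that it is silent. RNA of whole cultures was measured, so a weak signal in all cells and a strong one in a few cannot be told apart.

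Of 19775 genes, 8274 (41.8%) were near background, 10297 (52.1%) were moderate and 1204 (6.09%) were high. The median signal was 8.37 in the first class, 130.9 in the second and 1893 in the third, and 37.2 over all genes. Agreement between arrays differed by class: 92.0% of the high genes were high on each array taken alone, against 89.0% of the moderate genes and 78.3% of the genes near background for their own classes. The median SD of log2(signal + 16) over the 3 arrays was 0.29 near background, 0.16 for moderate genes and 0.084 for high genes. Signals of 2859 genes (14.5%) lay on both sides of the background bound on different arrays. At the background bound, which is 21.5653 before rounding, GALNT7-DT (21.5661) was just inside the moderate class and ANKRD65 (21.5551) just outside it, and at the upper bound PFKP (1000.2 ± 5.58) was just inside the high class and DESI2 (998 ± 54.7) just outside it.

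**Figure D1:**
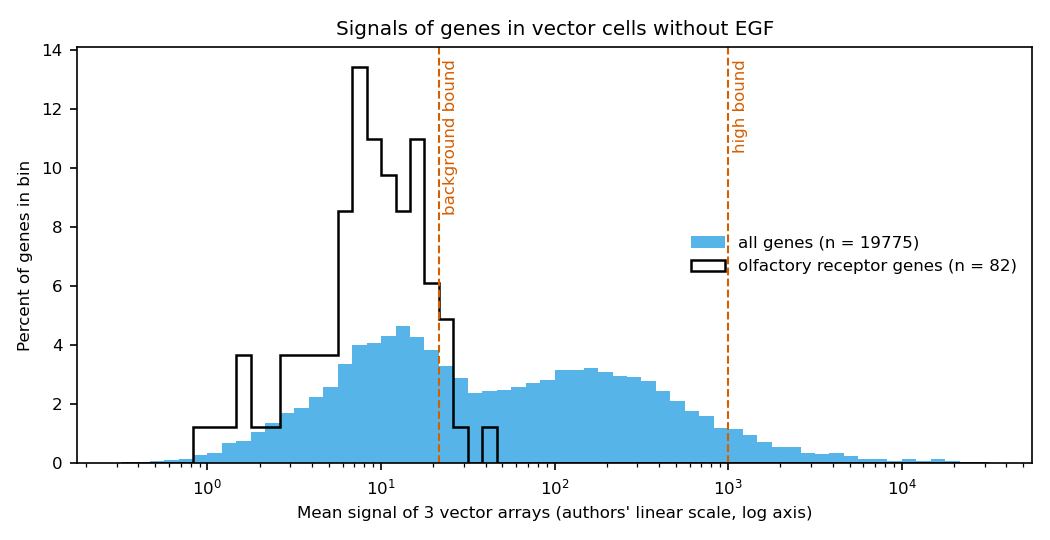
The filled histogram gives the percent of 19775 genes in each bin of mean signal over the 3 vector arrays (log axis), and the outline gives the same for 82 olfactory receptor genes. Dashed lines mark the bounds of 21.6 and 1000, and the olfactory receptor genes lie almost entirely to the left of the first, as its definition requires.

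The 3 arrays were alike as a whole. Their median signals over 54675 probe sets lay between 19.9 and 20.2, and between 44.6% and 44.7% of probe sets read under 16. Over all probe sets but the controls, the pairwise correlation on the log2(signal + 16) scale was 0.972 to 0.974. The 5′ control probe set of ACTB divided by its 3′ one, a measure of how far labelled RNA reaches from its 3′ end, was 0.377, 0.325 and 0.436 on replicates 1 to 3. Replicate 2 gave the highest signal for 584 of the 1204 high genes, against 312 for replicate 1 and 308 for replicate 3. Its ACTB ratio was also the lowest, and the part of that difference in the signals was not tested.

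The 5 genes given as markers of these cells were all high. Genes were chosen with earlier results of these data known, so this describes their level and is no independent finding. KRT5, the type II keratin of basal cells, gave 11097, 12672 and 11822 on replicates 1 to 3 (11864 ± 788). KRT15, a type I keratin of basal and progenitor cells, gave 12854, 12656 and 13097 (12869 ± 221). KRT14, the usual partner of KRT5, gave 2464, 3132 and 2324 (2640.3 ± 432), with replicate 2 above the other arrays. All 3 keratins were far above the upper bound on every array. EGFR gave 2008, 2189 and 1858 (2018 ± 166), and SELENOP, a secreted protein that carries selenium, gave 4662, 4867 and 5034 (4855 ± 186). EGFR was high by 2 of its 9 probe sets, and SELENOP by 1 of 3 while its other probe sets gave 28.7 and 40.1, so the class of both rests on the brightest probe sets.

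The stretches just before the RefSeq transcription starts (build GRCh38.p14) of KRT5, SELENOP and EGFR are shown because they differ in base composition while all 3 genes were high. Each line gives the 100 bases that end at the start, 5′ to 3′ on the gene's own strand, and both strands were searched. Capitals in SELENOP mark the letters of a TATA box, searched only as the exact string TATAAA. The KRT5 stretch did not hold that string, and near matches, such as gataaaa in it, were not searched or marked. In EGFR they mark a GC box, searched as GGGCGG and found on the opposite strand, so that its reverse complement is printed. The KRT5 stretch lies on the minus strand at chr12:52520395-52520494, that of SELENOP on the minus strand at chr5:42811893-42811992 and that of EGFR on the plus strand at chr7:55018917-55019016.
KRT5: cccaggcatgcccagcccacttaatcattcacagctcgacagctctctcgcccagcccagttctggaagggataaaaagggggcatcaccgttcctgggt
SELENOP: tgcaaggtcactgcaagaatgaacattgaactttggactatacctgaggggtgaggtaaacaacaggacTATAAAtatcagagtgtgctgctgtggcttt
EGFR: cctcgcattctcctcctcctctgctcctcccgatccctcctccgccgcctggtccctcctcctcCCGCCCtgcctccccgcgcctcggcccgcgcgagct
In the 250 bases before the start, CG pairs numbered 0 for SELENOP, 6 for KRT5 and 25 for EGFR, beside a median of 21 for high genes, 21 for moderate genes and 10 for all 27305 genes of the promoter table. TATAAA stood 31 bases before the SELENOP start, and 11.2% of all promoters held it on either strand in that length. The GC box of EGFR stood 36 bases before its start, and 42.2% of all promoters held GGGCGG. These matches describe the letters and say nothing of a factor's binding.

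Basal epithelial genes were above background throughout the measured list. All 16 measured members of the basal list were above background and 10 were high, beside 58.2% above background and 6.09% high among all genes. 7 further members are named by no single-gene probe set and were not analysed here. Besides the keratins and EGFR, the high members were SFN (11594 ± 1220.3), a 14-3-3 protein that restrains cell division, PERP (10760.5 ± 687), a desmosome protein, TRIM29 (3218 ± 146), DST (1687 ± 132) and ITGB4 (1519 ± 169), which anchor the hemidesmosome, and DSG3 (1324 ± 44.7), a desmosomal cadherin. ITGB4 was high by 1 of its 5 probe sets, and the others spanned 7.88 to 559. The moderate members were CDH3 (942 ± 15.4), the P-cadherin of basal cells, ITGA6 (688 ± 102), BNC1 (686 ± 34.4), a zinc finger factor of stratified epithelia, LAMB3 (552 ± 34.8), DSC3 (491 ± 41.4) and the Notch ligand JAG2 (394 ± 66.5).

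Of 23 luminal genes 7 were high, 6 moderate and 10 near background, so 56.5% were above background, beside 58.2% of all genes, and 30.4% were high, beside 6.09%. The simple-epithelium keratins KRT7 (6333 ± 472), KRT18 (3559 ± 221) and KRT8 (1304 ± 144) were high, as were the surface proteins MUC1 (2208 ± 60.1), CD24 (1992 ± 81) and EPCAM (1063 ± 89.7) and the ETS factor EHF (1680.1 ± 76.8). KRT7 was high by 1 of its 4 probe sets. KRT19, the remaining keratin of luminal cells, gave 1.90, 12.4 and 1.77 and stayed under the bound on every array. The estrogen receptor gene ESR1 gave 18.3, 20.9 and 27.6, with replicate 3 above the bound and the other arrays under it, and its mean of 22.3 was barely moderate. Without replicate 3 the mean was 19.6, under either bound, and without replicate 2 it was 23.0, which was near background by the bound of 23.5 recomputed from the remaining arrays. The progesterone receptor PGR (4.56 ± 2.97), the pioneer factor FOXA1 (18.5 ± 1.88), the trefoil factors TFF1 (12.5 ± 7.23) and TFF3 (12.2 ± 8.47) and the tight junction genes CLDN3 (5.04 ± 2.10) and CLDN4 (11.5 ± 10.5) were near background, while GATA3 (430.3 ± 13.2) was moderate. All 9 measured milk protein genes were near background, between CSN1S1 (1.49 ± 1.35) and PIP (19.5 ± 4.26).

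**Figure D2:**
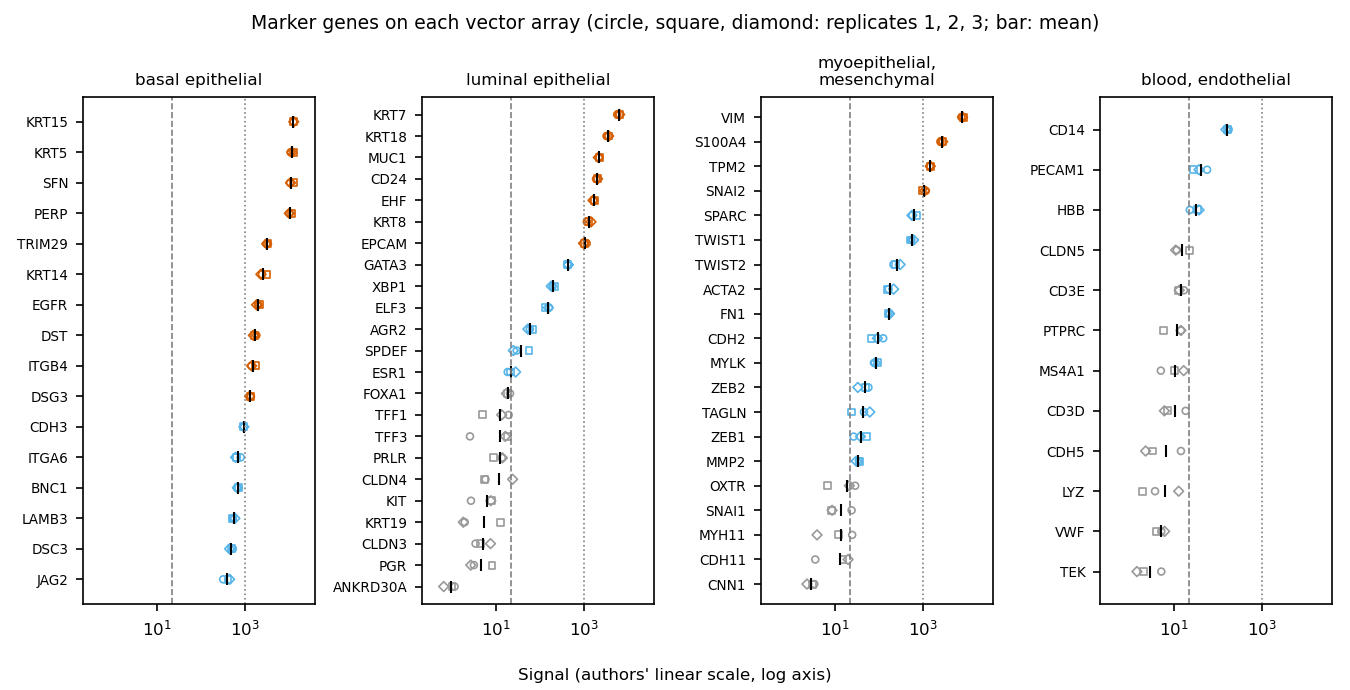
Each row is a gene of the basal, luminal, myoepithelial and mesenchymal, or blood and endothelial list, and the x axis is its signal (log axis) on each array (circle, square and diamond for replicates 1, 2 and 3) with the mean as a bar. Orange marks high, blue moderate and grey near background genes, with the bounds as a dashed and a dotted line. All 16 basal genes lie right of the dashed line, while 10 of 23 luminal genes lie left of it.

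Mesenchymal and myoepithelial genes were mixed. Of 20 measured, 4 were high, 11 moderate and 5 near background. Thus 75% were above background and 20% high, beside 58.2% and 6.09% of all genes. VIM, the intermediate filament of mesenchymal cells, was high at 7993 ± 351.06, as were S100A4 (2743 ± 196), the tropomyosin TPM2 (1476 ± 35.3) and the repressor SNAI2 (1085 ± 86.6), whose relative SNAI1 (13.4 ± 8.86) was near background. VIM was high by 1 of its 2 probe sets, and the other gave 9.74. TWIST1 (563 ± 45.5), FN1 (169 ± 8.37), ACTA2 (178 ± 33.1) and CDH2 (94.8 ± 28.2) were moderate, and the contractile genes CNN1 (2.85 ± 0.538) and MYH11 (13.3 ± 10.4) were near background. Among 31 transcription factors of epithelia, 5 were high: ID1 (3533 ± 406) and ID3 (1086 ± 125), which block bHLH factors, EHF, NFIB (1319 ± 67.5) and KLF5 (1084 ± 51.1). This was 16.1% of the list, beside 6.09% of all genes, and 77.4% were above background, beside 58.2%. GRHL2 (7.42 ± 5.0) and ELF5 (7.33 ± 5.67), of which ELF5 is a factor of luminal epithelium, were near background.

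Markers of other cell types were mainly near background. The share above background was 30% for fibroblast, 25% for blood and endothelial and 17.6% for fat, muscle, nerve and liver markers. Among all genes it was 58.2%. Of 60 reference genes of other organs, 8 (13.3%) were above the bound too, with signals up to 130. Of the fibroblast list, 7 of 10 were near background, including COL3A1 (9.52 ± 8.54), PDGFRA (9.72 ± 5.76) and LUM (6.66 ± 5.53), but DCN, a small proteoglycan of connective tissue, was high at 1345 ± 82.8 by 1 of its 7 probe sets, and its other 6 spanned 5.69 to 838. The summed signal of the fibroblast list was 1454, 1585 and 1614 on replicates 1 to 3, of which DCN made up 1249.6, 1395 and 1390.3. Of 12 blood and endothelial markers, 9 were near background, and PTPRC, the general marker of leukocytes, gave 14.3, 5.72 and 14.2, while CD14 (163 ± 11.9) was moderate. Of 17 markers of fat, muscle, nerve and liver, 14 were near background, with SERPINA1 (619.5 ± 31.6) moderate. The 5 melanocyte and Merkel cell markers were all near background. Whether the markers above background came from MCF10A cells was not tested.

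Genes of the 9p21 region were near background or little above the bound, apart from KLHL9. Of 8 genes 5 were near background and 37.5% above it, beside 58.2% of all genes. CDKN2A, which makes p16 and p14ARF, gave 47.4, 19.3 and 51.9 by its brightest of 3 probe sets, so replicate 2 was under the bound and the other arrays above it. MTAP, a neighbouring enzyme gene of methionine salvage, gave 27.1, 7.65 and 34.5 by 1 of 6 probe sets, and its class became near background without replicate 1 or without replicate 3 (21.1 and 17.4). CDKN2B (5.23 ± 4.73), the other kinase inhibitor of the region, was near background, as were DMRTA1 and the 3 interferon genes on the list, while KLHL9, a ubiquitin ligase adaptor gene, was moderate at 212 ± 27.1. The deletion's extent was not measured here.

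Of 4 receptors of the EGF family, through which the omitted ligand acts, 3 were above background, beside 58.2% of all genes. EGFR was high, ERBB2 (174 ± 48) and ERBB3 (114 ± 17.6) were moderate and ERBB4 (10.9 ± 6.0) was near background. Of 8 measured EGF-family ligands, 3 were moderate, namely TGFA (160.04 ± 10.3), HBEGF (34.1 ± 11.9) and EREG (23.8 ± 3.51). The share above background was 37.5%, beside 58.2% of all genes. EGF itself (3.20 ± 1.84) and NRG1 (15.3 ± 11.3), a ligand of ERBB3, were near background. ERBB2 was above the bound by 1 of 3 probe sets. Ligands that the list holds but no single-gene probe set names were not analysed here.

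Receptors of insulin and its relatives were moderate: IGF1R gave 373 ± 46.2, INSR 137 ± 24.2 and IGF2R, a clearance receptor, 640.1 ± 45, and of the binding proteins IGFBP6 (1443 ± 205) was high and IGFBP3 (16.1 ± 6.38) near background. Among 31 other receptor tyrosine kinases, AXL, a receptor for GAS6, was the 1 high gene, with 867, 1201 and 1158 (1075 ± 181), and 16 were moderate. AXL was high by 1 of its 2 probe sets, and the other gave 98.1. MET, the receptor of hepatocyte growth factor, gave 937 ± 98.9 and FGFR3 667 ± 53, while KIT (6.01 ± 2.92) and both PDGF receptors were near background. Of 13 Eph receptors, 6 were moderate, including EPHB4 (262 ± 62.9), and no member was high. The share above background was 54.8% for the other receptor tyrosine kinases and 46.2% for the Eph receptors, beside 58.2% of all genes.

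Of 39 nuclear receptors 2 were high (5.13%) and 53.8% above background, shares close to the 6.09% and 58.2% of all genes. NR3C1, the glucocorticoid receptor, gave 1206, 1028 and 1102 (1112 ± 89.5), above 1000 on every array by its brightest probe set. RXRA, the shared partner of many nuclear receptors, gave 1018, 1111 and 955 (1028 ± 78.5), and was moderate at 986 without replicate 2. It was high by 1 of its 2 probe sets, and the other gave 98.1. VDR, the vitamin D receptor, was moderate (351.03 ± 15.9), and the retinoic acid receptors RARG (116 ± 9.49) and RARA (67.3 ± 3.89) were moderate while RARB (17.8 ± 13.3) was near background.

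Of 46 cytokine and death receptors, 5 were high and 29 moderate, so 73.9% were above background, beside 58.2% of all genes. The high ones were IFNGR1 (2969 ± 215), a chain of the interferon gamma receptor, IL20RB (1690.3 ± 111), IL6ST (1393 ± 106), the signal chain of IL-6 family receptors, OSMR (1199 ± 124) and the death receptor TNFRSF10B (1320.1 ± 155). TGFBR2 was high (1309 ± 32.5) among 13 TGF-beta family receptors, of which 9 were moderate. It was high by 1 of its 2 probe sets, and the other gave 38.7. Of these receptors 76.9% were above background, beside 58.2% of all genes. In the Notch and Wnt list, 15 of 20 were moderate, including FZD6 (830.4 ± 62.6) and NOTCH2 (640.4 ± 63.3), and LGR5 (6.16 ± 7.31) was near background. No member was high, and 75% were above background, beside 58.2% of all genes. Of 42 G protein-coupled receptors, 20 were moderate and 22 near background, so 47.6% were above background, beside 58.2% of all genes. GPRC5A (412 ± 34.8), F2R, the thrombin receptor (341 ± 46.7), and ADORA2B (312 ± 26.4) were among the moderate.

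**Figure D3:**
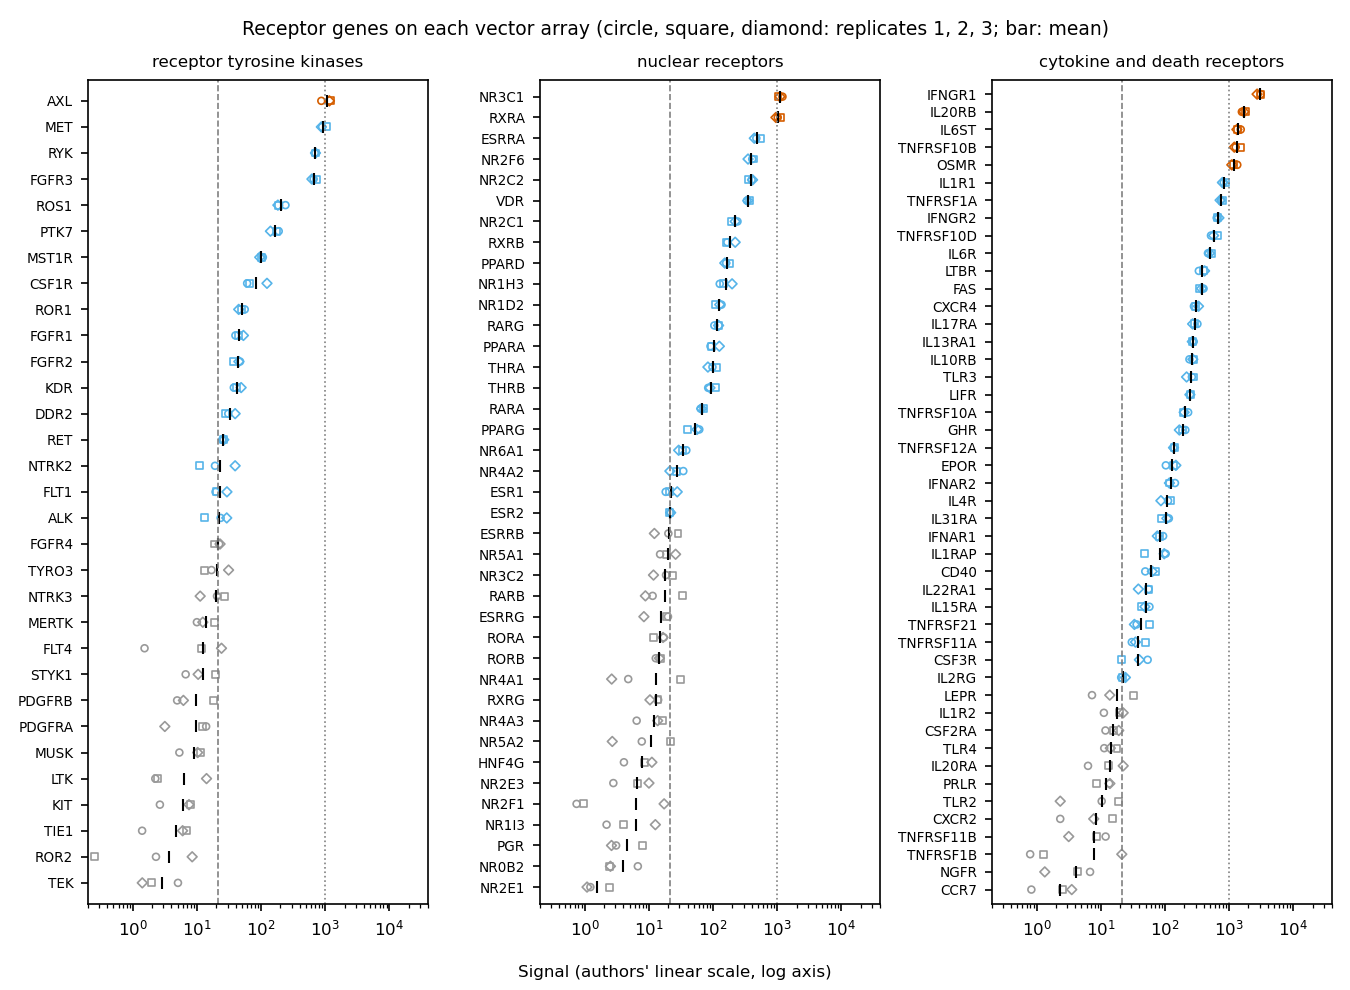
Rows are receptor genes of 3 lists, and the x axis is the signal (log axis) on each array (circle, square and diamond for replicates 1, 2 and 3), with bars for means and colours for the classes. AXL, NR3C1, RXRA, IFNGR1, IL20RB, IL6ST, TNFRSF10B and OSMR are the genes right of the dotted line at 1000.

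The high receptors for the extracellular matrix were integrin beta chains, CD44 and syndecans. Among 30 integrins and other matrix receptors, 6 were high and 12 moderate. Thus 60% were above background and 20% high, beside 58.2% and 6.09% of all genes. ITGB1, the common beta chain, was high besides ITGB4, at 6519.9 ± 133, with ITGB8 at 1162 ± 99, the hyaluronan receptor CD44 at 1899.8 ± 93.2 and the syndecans SDC1 and SDC4 at 1071 ± 48.6 and 1037 ± 77.4. The alpha chains were moderate or near background, with ITGAV (809.7 ± 75.9) and ITGA6 moderate and the leukocyte chains ITGAL (14.8 ± 3.72) and ITGAX (3.57 ± 1.04) near background. ITGB1 was high by 3 of its 7 probe sets, and 3 others were near background.

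Among 25 laminin and basement membrane genes, LAMB1 (2709 ± 89.8) and LAMC1 (1137 ± 55.3), chains of the common laminins, were high, and LAMB3 and LAMA5 (384 ± 40.003) were moderate. In this list 56% were above background, close to the 58.2% of all genes, and 16% were high, beside 6.09%. Type IV collagen genes lie in head-to-head pairs that share a stretch between their starts. COL4A5 and COL4A6 were both high, COL4A5 with 1063, 1038 and 976 on replicates 1 to 3, and COL4A6 with 969, 1286 and 930. COL4A5 was high by 1 of its 2 probe sets, and the other gave 15.9. COL4A6 was high by 1 of 3, and the others gave 128 and 15.5. With the median or the mean over probe sets both genes were moderate. COL4A5 was under 1000 on replicate 3 and COL4A6 on replicates 1 and 3, and without replicate 2 COL4A6 was moderate at 949. The pair COL4A1 (154 ± 14.6) and COL4A2 (275 ± 30.7) was moderate, and COL4A3 (14.4 ± 5.08) and COL4A4 (19.8 ± 3.16) were near background. Both genes of each pair thus lay in 1 class, which was noticed after the values were seen.

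The 250-base upstream windows of this pair overlap. The stretch common to the upstream windows of COL4A5 and COL4A6, on chromosome X, is shown because both genes were high by their brightest probe sets. It lies on the plus strand at chrX:108439588-108439708 and covers 121 bases between the starts of both genes, which stand 379 bases apart.
COL4A5 and COL4A6 shared stretch: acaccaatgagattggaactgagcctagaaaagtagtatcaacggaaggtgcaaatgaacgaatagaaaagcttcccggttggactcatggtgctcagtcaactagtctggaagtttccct
It held 3 CG pairs and no TATAAA, and no base was set in capitals.

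No fibrillar or related collagen was high. Of 25 fibrillar and other collagens, 11 were moderate and 14 near background, so 44% were above background, beside 58.2% of all genes. COL12A1 (180.1 ± 16.6) and COL8A1 (159.6 ± 17.3) were moderate and COL1A2 (10.9 ± 13.3) near background. Of 47 matrix glycoproteins and crosslinking enzymes, 5 were high: TGFBI (7747 ± 329), an adhesion protein induced by TGF-beta, EFEMP1 (3728 ± 89.9), PLOD2 (1459 ± 79.6) and LOX (1031 ± 45.9), which modify collagen, and DCN. Of 52 protease and inhibitor genes 7 were high, 29 moderate and 16 near background. The collagenase MMP1 (6.49 ± 6.29) and the stromelysin MMP3 (7.56 ± 7.0) were near background, and the gelatinase MMP9 (26.4 ± 12.2) was moderate. The high members were the proteases ADAM9 (2291 ± 173) and CTSB (1741 ± 115) and 5 protease inhibitors, CSTA (5007 ± 198), TIMP1 (4964 ± 693), SERPINB5 (2905 ± 50.6), SLPI (2901 ± 290.4) and SPINT2 (1679 ± 94.3).

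Of 24 cadherin and desmosome genes, 8 were high (33.3%, beside 6.09% of all genes), 7 moderate and 9 near background. The high members included CDH1, the E-cadherin of epithelia (1443 ± 68.6), DSP (6591 ± 631), DSG2 (2183 ± 86.3), CTNNA1 (2467 ± 121) and JUP (1049 ± 42.8). CDH1 was high by 1 of its 2 probe sets, and the other gave 71.7. Of 32 tight and gap junction genes, 1 was high (TJP1, 1061 ± 190.3), 15 were moderate and 16 near background, among them GJA1 (9.16 ± 2.28), a widely expressed connexin. The share above background was 62.5% for cadherin and desmosome genes and 50% for junction genes, beside 58.2% of all genes.

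Some neighbouring genes of a family lay on opposite sides of the background bound. Among consecutive measured family members this held for 5 of 22 type I keratin pairs and 5 of 20 in the type II cluster. The latter cluster also holds KRT18, a type I keratin gene. Opposite sides were also seen in 2 of 6 pairs of desmosomal cadherins and 7 of 15 of S100 genes, and the remaining pairs shared a side. Over all genes, 58.2% were above background. The share of neighbouring pairs on opposite sides among all genes was not computed, so these counts do not set the families apart. Of 23 measured type I keratin genes on chromosome 17, 5 were above background, and KRT19 and KRT9 (6.39 ± 4.38) were near background between KRT15 and KRT14. The 7 desmosomal cadherin genes on chromosome 18 followed each other as DSC3, DSC2 (552 ± 31.6), DSC1 (1.33 ± 0.763), DSG1 (6.33 ± 4.07), DSG4 (1.30 ± 0.786), DSG3 and DSG2, with the 3 in the middle near background and the 4 at the ends above it. Of 16 measured S100 genes on chromosome 1, calcium-binding proteins, 12 were above background, with S100A6 (19688 ± 1529) and S100A2 (18141 ± 1304) high and S100A7 (2.31 ± 0.971), S100A5 and S100A12 near background. EHF and ELF5, neighbours on chromosome 11, were high and near background, and GJB2 (25.6 ± 2.32) and GJB6 (1.07 ± 0.755) on chromosome 13 were moderate and near background. CLDN3 and CLDN4, neighbours on chromosome 7, were both near background. These clusters were chosen after their values were seen.

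**Figure D4:**
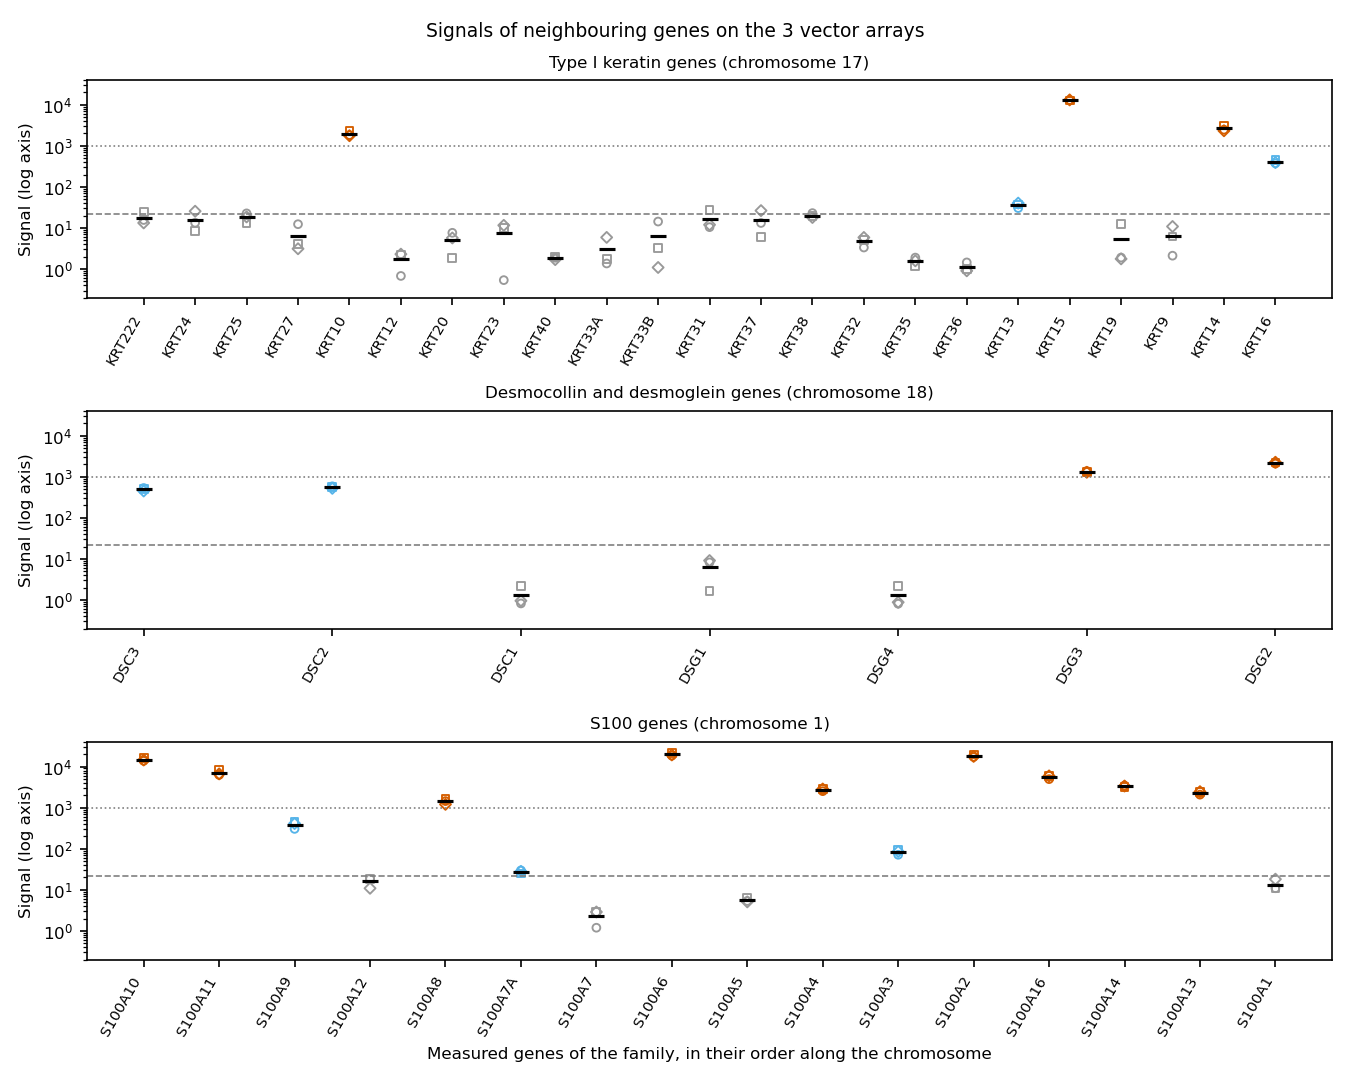
The measured type I keratin, desmosomal cadherin and S100 genes are placed in their order along the chromosome on the x axis, and the y axis is signal (log axis) on each array (circle, square and diamond for replicates 1, 2 and 3; bar for the mean). Grey genes below the dashed line at 21.6 lie among orange genes above the dotted line at 1000, for example DSC1, DSG1 and DSG4 between desmosomal genes that were above background.

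Metallothioneins, small metal-binding proteins whose genes lie together on chromosome 16, were mostly high. Of 9 measured genes of the cluster, 6 were high, MT3 (26.2 ± 9.59) was moderate, and MT4 (13.4 ± 11.2) and MT1M (8.08 ± 3.63) were near background. MT2A gave 15947, 17859 and 16502 (16769 ± 983), MT1X 13862 ± 1339 and MT1E 11396 ± 837, all high on every array. The genes are close copies, so their probe sets may read each other's transcripts. The promoters of MT2A and MT1X are shown because both genes were high and both carry TGCGCNC, a form of the metal response element core. This form and TATAAA are in capitals. The printed stretches give the 160 bases before the start on the plus strand, at chr16:56608424-56608583 and chr16:56682310-56682469. The core was searched only as TGCGCNC. Near matches, such as tgcactc in MT2A and tgcaccc in MT1X, were not searched or marked, so the capitals may not show every element.
MT2A: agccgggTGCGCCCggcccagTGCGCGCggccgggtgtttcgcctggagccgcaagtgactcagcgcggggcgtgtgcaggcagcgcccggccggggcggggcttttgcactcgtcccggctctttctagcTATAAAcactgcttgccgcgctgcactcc
MT1X: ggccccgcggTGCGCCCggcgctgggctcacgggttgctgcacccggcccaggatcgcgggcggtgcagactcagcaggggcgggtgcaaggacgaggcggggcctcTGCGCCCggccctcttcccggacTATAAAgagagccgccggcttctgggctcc
TGCGCNC began 153 and 139 bases before the MT2A start and 150 and 53 bases before the MT1X start, and TATAAA 29 and 30 bases before. TGCGCNC was found in 16.8% of all promoters on either strand within 250 bases, in 26.1% of those of moderate genes and in 30.2% of those of high genes. The match is to letters, and binding was not measured.

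Energy metabolism genes, hexose transporters apart, were largely above background. The share above background was 90% for oxidative phosphorylation, 75% for glycolysis, 91.2% for the TCA cycle list and 50% for hexose transport. Among all genes it was 58.2%. The share high was 73.3%, 58.3%, 29.4% and 0%, in that order, beside 6.09% of all genes. Of 30 oxidative phosphorylation genes 22 were high, with a median signal of 3964, and those near background included UCP1 (2.55 ± 0.43) and COX7A1 (4.10 ± 4.15), forms used in brown fat or muscle. Of 24 glycolysis genes 14 were high, including GAPDH (16986 ± 595), LDHA (11698 ± 1029), LDHB (9232 ± 275), ALDOA (8102 ± 667) and HK1 (1279.9 ± 73.7), the ubiquitous hexokinase. HK2 (119 ± 16.9), the inducible hexokinase, was moderate, and HK3, PKLR and PGAM2 were near background. Glucose transporters were moderate at most: SLC2A1, the basal uptake carrier, gave 386 ± 32.5, SLC2A5, a fructose carrier, 210.04 ± 31.1, and SLC2A3 (12.4 ± 9.62) and the insulin-regulated SLC2A4 (5.02 ± 2.49) were near background. Of 34 pyruvate dehydrogenase and TCA cycle genes 10 were high and 3 near background, and PDK4, the kinase that shuts pyruvate dehydrogenase during fasting, was moderate (423 ± 14.8).

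Genes of biosynthesis and redox defence followed. The share high was 29.4% in the pentose phosphate list, 29.4% in the amino acid list and 23.3% in the fatty acid list. It was 25% for cholesterol synthesis and 55.3% for selenium and redox genes, beside 6.09% of all genes. Above background were 88.2%, 85.3%, 83.3%, 95% and 93.6%, in that order, beside 58.2% of all genes. TKT, transketolase of the pentose phosphate pathway, was high (11776 ± 226), as were TALDO1 (2131 ± 90.7) and the serine enzyme PSAT1 (1389 ± 104). In the fatty acid list, 7 of 30 were high, among them ACSL1 (5109 ± 213), which activates fatty acids, and SCD (3559 ± 214), the desaturase. FDPS (3493 ± 272), MSMO1 (3381 ± 136) and SQLE (1961 ± 151) were among 5 high genes of 20 for cholesterol synthesis. Of 34 amino acid genes 10 were high, with GLUL, glutamine synthetase, at 10487 ± 746, SLC7A5, a large neutral amino acid carrier, at 5702 ± 503 and ASS1, of arginine synthesis, at 4796 ± 344. Of 47 selenium and redox genes 26 were high, including GPX1 (6725 ± 551), PRDX6 (6439 ± 216), SOD1 (6087 ± 133), TXNIP (3909 ± 120.4) and GSTP1 (5200.4 ± 731), and GPX2 (19.6 ± 14.4), GPX3 (18.1 ± 5.83) and SOD3 (17.5 ± 3.77) were near background.

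Of 38 genes of steroid, retinoid and amine metabolism 10 were high, 17 moderate and 11 near background. AKR1C1 (7200.4 ± 146), AKR1C2 (6751 ± 179) and AKR1C3 (4663 ± 154), ketosteroid reductases of a gene cluster on chromosome 10, were high, and AKR1C4 (9.66 ± 9.96) was near background. Their sequences are close, so probe sets may share transcripts. AKR1C1 was high by 2 of its 5 probe sets, and its dimmest gave 12.5. MAOA, monoamine oxidase A, was high (3910.3 ± 60.6) and MAOB (12.9 ± 5.57) near background, and SULT1E1, the estrogen sulfotransferase, was high (1188 ± 185). CYP19A1, aromatase (8.48 ± 6.11), CYP24A1 (5.39 ± 8.17) and ALDH1A1 (3.06 ± 2.63) were near background.

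**Figure D5:**
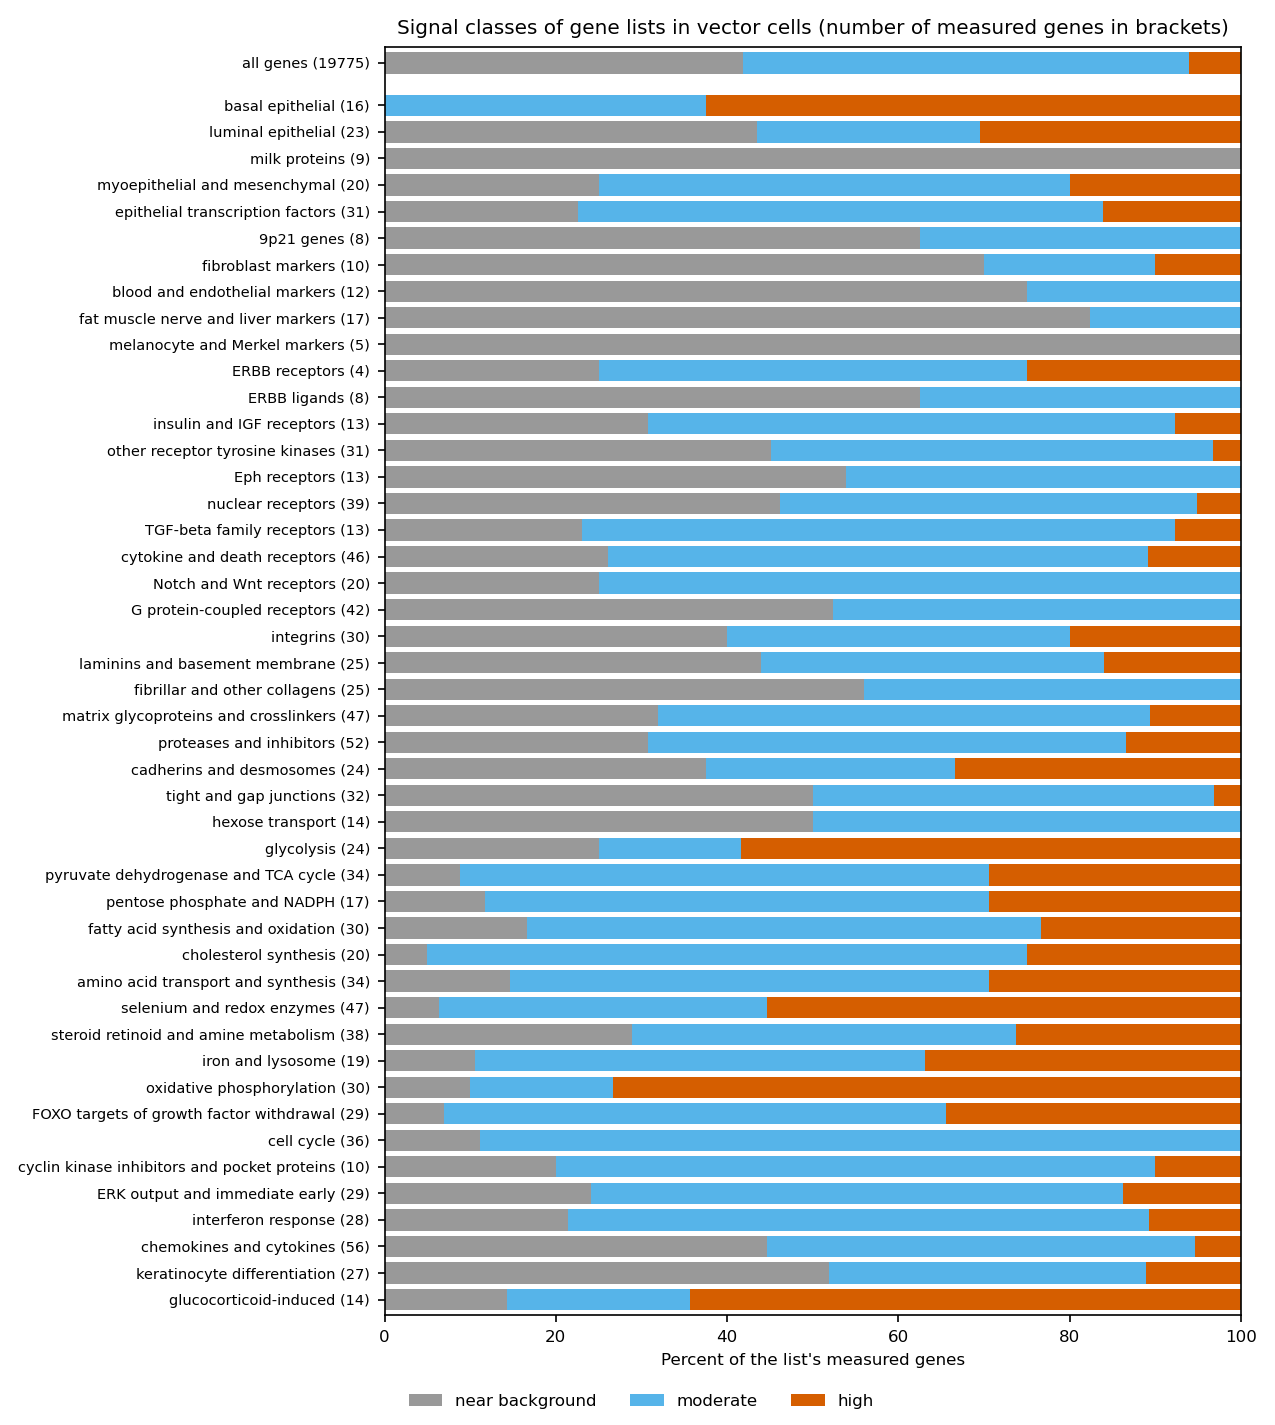
Bars give the percent of each list's measured genes that were near background, moderate or high, with the number measured in brackets, for 46 lists and for all genes (top bar). The list of reference genes of other organs is not drawn. Basal genes, glycolysis, oxidative phosphorylation, selenium and redox enzymes and the glucocorticoid-induced list have between 55.3% and 73.3% of their members high. Among all genes 6.09% were high, and the glucocorticoid-induced list also holds the receptor gene NR3C1.

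Genes that respond to growth factors and hormones were measured in this 1 state, with no comparison. Of 36 cell cycle genes none was high, 32 were moderate and 4 near background, with a median of 141. CCND1, the cyclin that mitogens induce, was moderate at 54.3 ± 18.8, while MKI67 (144 ± 19.9) and TOP2A (266 ± 47.5), genes of dividing cells, were moderate. The inhibitor CDKN1C (1687 ± 194) was high, and CDKN1A (852 ± 68.9) and CDKN1B (619 ± 31.8) were moderate. CDKN1C was high by 1 of its 5 probe sets, and the others spanned 0.833 to 531. Of 29 genes that FOXO factors are known to induce on growth factor withdrawal 10 were high, including TSC22D3 (4990.4 ± 185), BTG1 (4716 ± 341) and FOXO3 itself (2384 ± 14.2). Of 29 genes of ERK output, DUSP1 (7199.7 ± 304), MYC (4376 ± 278), FOSL2 (1565 ± 36.1) and JUND (1294 ± 116) were high, and the feedback phosphatase DUSP6 (10.8 ± 1.72), SPRY4 (13.6 ± 9.15) and ETV4 (7.85 ± 4.79) were near background. Of 14 measured genes of the glucocorticoid list 9 were high (64.3%, beside 6.09% of all genes). The high ones included NR3C1, the receptor itself, besides genes induced by glucocorticoids. FKBP5, an immunophilin, gave 10666 ± 108 and SGK1 1521 ± 98.3, and several of these genes respond to other signals too.

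Transcripts of translation and respiration made up most of the top of the signal range. The 20 genes with the highest signals included 11 ribosomal protein genes and COX1, COX2 and ND4, which the mitochondrial genome carries, besides TPT1 (21846 ± 772), EEF1A1 (21545 ± 852), TMSB10 (18764 ± 954), S100A6 and S100A2. HUWE1, a ubiquitin ligase gene, entered with 21002 ± 926 by 1 of its 5 probe sets, and its other 4 gave 570, 21.4, 15.2 and 6.67. Of 50 measured ribosomal protein genes 48 were high, beside 6.09% of all genes.

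On the log2 scale, the largest spreads were mostly those of dim genes. Of the 15 genes above background with the largest SD of log2(signal + 16) over the arrays, 14 had a mean under 100 and 14 had at least 1 array at or under the bound. QNG1, which encodes a queuosine salvage enzyme, was the exception on both counts, with 441, 50.9 and 571 and replicate 2 low. CLN6, a lysosomal storage disease gene, gave 49.4, 92.7 and 8.63 and GNAO1, a G protein subunit, gave 115, 64.2 and 15.6, with replicate 3 low in both. Among high genes, LUC7L3, a splicing factor, gave 1989, 1105 and 1369 and SHC1, an adaptor of receptor tyrosine kinases, gave 6146, 9027 and 5677, with replicate 2 lowest in the first and highest in the second. Of the 1204 high genes 5 had an SD of log2(signal + 16) above 0.3.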

How the data were processed

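RNA of the 3 vector samples was measured on Affymetrix arrays. The authors deposited a linear intensity for each probe set on each array, and the submitters' processing notes name MAS5. The version of MAS5 is not given in the sources used here, and detection calls were not used. MAS5 corrects for background and brings every array to 1 overall scale, and the trimmed mean (2% off each end) was 100.004 on all 3 arrays. Intensities were not normalized again.

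Probe sets were named from the platform's annotation table: of 54675, 62 are controls, 41097 name 1 gene, 1801 several and 11777 none, and 41037 matched the RefSeq gene table by Entrez number, with 0 symbols updated. Gene order came from that table and promoter sequences from RefSeq's table (GRCh38.p14). Each gene took its single-gene probe set with the highest mean of 3 arrays, and results are descriptive, with no test. The classes, spread and lists are defined in the text, and log2(signal + 16) was used for spread. Members and lists were chosen with earlier results of these data known. The 47 lists hold 1256 different genes, of which 1147 were measured and 109 have no single-gene probe set and were not analysed here. Named genes were the 5 markers, list members, the 20 highest signals and the 15 largest SDs, and in family neighbourhoods and the tails of high genes names were chosen after values were seen. Python 3.11.15, pandas 2.3.3, numpy 2.4.6 and matplotlib 3.10.9 were used, with the scripts tested on simulated data. Arrays give no read depth, and their number limits the precision. Alternatives were other bounds, other probe set rules, quantile normalization, equal medians, other pseudocounts and filters, and each array left out.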

Additional observations from a re-analysis of the deposited data

How the results depend on the processing

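With other background bounds, the number of genes near background ranged from 6982 with the bound set on Bacillus control probe sets, an alternative chosen after seeing the data, to 9600 with the bound set on 60 genes of other organs. The count of high genes depended on the choices: 2335 with the high bound at 500, 569 at 2000, 686 with the median over a gene's probe sets and 744 with their mean. With probe sets of the plain kind only it was 570, out of the 16782 genes that have such a probe set. Counting every single-gene probe set gave 19663 near background and 19844 moderate out of 41091 probe sets. Leaving out low probe sets gave 3622 near background out of 15123 genes, since that filter removes dim genes. Replicate spread (median SD of log2 signal) was 0.147 and became 0.165 with a pseudocount of 1, 0.111 with 64 and 0.190 with no filter. With an array left out the spread was 0.109 to 0.127, but these SDs cover fewer arrays. They are not comparable with the SD over all 3 arrays, so no dependence on an array was read from them. Leaving out each array gave 8296 to 8506 near background, 10079 to 10270 moderate and 1190 to 1209 high. Quantile normalization and equal array medians changed no class among 91 named genes, while the median over probe sets changed 26 and the mean 17. With the median, EGFR, SELENOP, KRT7, DCN, ITGB1, ITGB4, NR3C1, RXRA, TGFBR2, AXL and LAMC1 became moderate. So did COL4A5, COL4A6, EFEMP1, LOX, CDH1, AKR1C1, TSC22D3, CDKN1C and DUSP1. ERBB2, CDKN2A, HBEGF, ESR1, MTAP and HUWE1 became near background. Above-background counts moved for 8 of 47 lists under that median and for 15 with plain probe sets, where lists may have fewer measured members. No paired analysis was possible because the results come from no test and 1 group is described. With 3 arrays, signals around 21.6 cannot be placed firmly, and the cause of differences between probe sets of a gene was not tested.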

Other observations

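Of 28 interferon response genes 3 were high (10.7%, beside 6.09% of all genes), all of antigen presentation: B2M (10631 ± 118), HLA-C (1709 ± 156) and HLA-B (1224 ± 141). Interferon-induced effectors such as IFIT1 (48.5 ± 11.1) and ISG15 (73 ± 9.30) were moderate and MX1 (8.41 ± 6.76) and RSAD2 (4.97 ± 4.90) near background. Of 56 chemokine, cytokine and growth factor genes 3 were high (5.36%, close to the share of all genes), namely IL18 (1290.5 ± 175), PDGFC (1231 ± 69.5) and SEMA3C (1103 ± 28.7), and 25 were near background, including IL6 (14.8 ± 7.12), TNF (11 ± 9.44) and CXCL8 (20.2 ± 7.0).

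Of 27 genes of keratinocyte differentiation 3 were high, KRT10 (1968 ± 306), EMP1 (2869 ± 271) and S100A8 (1417 ± 204), and 14 were near background, among them the cornified envelope genes IVL (9.30 ± 1.98) and FLG (9.99 ± 3.29) and the keratin KRT1 (9.11 ± 9.85), the usual partner of KRT10. In that list 48.1% were above background and 11.1% high, beside 58.2% and 6.09% of all genes. Lysosome and iron genes had 7 of 19 high, including FTL (7354 ± 711), ferritin light chain, and TFRC (3189.8 ± 213), the transferrin receptor, while SLC40A1, the iron exporter, was near background (21.4 ± 5.54). Their shares were 36.8% high and 89.5% above background, beside 6.09% and 58.2% of all genes.

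Promoter windows were found in the RefSeq table for 81.9% of moderate and 83.2% of high genes but for 71.9% of genes near background, which is under 80%, so base composition of that class was not read. The share of promoters with TATAAA was 5.23% for moderate and 7.39% for high genes, and the share with GGGCGG was 66.7% and 68.9%.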
